A study of Mus musculus with 2 samples.

Results

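The miR-99, miR-100 and miR-125 families are represented here by 6 miRNA genes, Mir99a, Mir99b, Mir100, Mir125a, Mir125b-1 and Mir125b-2, out of 1973 miRNA genes counted. They were chosen by name, as the rows whose Ensembl identifier carries one of these symbols in the GENCODE mouse annotation, and each of the 6 symbols matched 1 row. MicroRNA sequencing, with RNA molecules under 30 nucleotides, was done on the stomach of each of 2 pups of 1 dam of strain B6NCrl on postnatal day 0, with no treatment or mutant allele named in the labels and no record of sex. Both libraries form 1 group of 2 biological replicates, so the values describe levels and the spread between littermates, with no contrast between conditions. Levels are reads on the gene's own strand per 1000000 such reads (CPM).

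MiRNAs are RNAs of about 22 nucleotides (nt) that pair with messenger RNAs, mainly through bases 2 to 8 (the seed), and lower their output. MiR-99a, miR-99b and miR-100 belong to the miR-10/miR-100 family, and repression of the growth kinase mTOR is among their known actions. MiR-125a and miR-125b are the mammalian counterparts of lin-4, the Caenorhabditis elegans miRNA that, with let-7, sets the timing of larval development, and they repress Lin28, a blocker of let-7 maturation. In mouse the genes lie in clusters, each with a miR-99 or miR-100 gene, a let-7 gene and a miR-125 gene.

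The main (5p) products of the 6 genes fall into 2 seed groups, shown here because their near-identity sets what the counts can tell apart. Sequences are from RefSeq on GRCm38.p6, in which all 6 genes had mature sequences. Capitals mark the seed.
miR-99a-5p: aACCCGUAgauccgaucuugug
miR-100-5p: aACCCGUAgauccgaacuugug
miR-99b-5p: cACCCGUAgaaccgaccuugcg
miR-125a-5p: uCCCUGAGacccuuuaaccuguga
miR-125b-5p: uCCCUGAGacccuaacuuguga
Counted from 1 at the 5′ end, miR-100-5p differs from miR-99a-5p by 1 base, U16A. MiR-99b-5p differs from miR-99a-5p by 4 bases, A1C, U11A, U16C and U21C, none of them in the seed. MiR-125a-5p, with 24 nt, and miR-125b-5p, with 22 nt, share their first 13 bases. MiR-125b-5p is the product of both Mir125b-1 and Mir125b-2. Of their annotated mature products, only the 3p ones differ.
miR-125b-1-3p: aCGGGUUAggcucuugggagcu
miR-125b-2-3p: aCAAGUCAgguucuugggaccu
These 3p products differ by 5 substitutions, of which G3A, G4A and U7C fall in the seed.

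The gene counts add up both arms of a hairpin. The hairpins of Mir99a and Mir125b-1 follow, with the mature products in capitals, to show which stretches a gene count covers.
Mir99a: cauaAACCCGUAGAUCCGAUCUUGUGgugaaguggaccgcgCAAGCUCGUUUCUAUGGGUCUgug
Mir125b-1: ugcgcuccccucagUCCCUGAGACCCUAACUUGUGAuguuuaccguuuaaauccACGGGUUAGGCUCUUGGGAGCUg
The share of each arm in a gene's count was not measured.

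Own-strand counts summed to 4463355 in pup 1 and 3454655 in pup 2, and a count of 0 allows up to 0.672 and 0.868 CPM, for counting error only. Reads that mapped to several places made up 26.0% and 25.7% of all reads and are in no gene's count. Marker miRNA genes of stomach tissue were present: smooth muscle genes held 24.8%, squamous epithelial genes of the forestomach 11.4% and glandular epithelial genes 0.792% of the counts. Those of neighbouring organs were low, with the hepatocyte gene Mir122 at 0.0230% and 0 of 3 pancreatic acinar genes detected. The tissue is a mixture of cells, and fewer cells of a type cannot be told apart from less RNA per cell.

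All 6 genes were detected (10 or more counts in both libraries), and together they held 7.90% ± 0.174 (SD, n = 2 pups) of the counts. The share was 8.02% in pup 1 (exact Clopper-Pearson 95% interval 7.99% to 8.04%) and 7.77% in pup 2 (7.74% to 7.80%). Most of it was Mir99a, which made up 80.3% of the members' counts in pup 1 and 79.4% in pup 2. The let-7 list, the other family of the developmental timing pathway, held 9.22% ± 0.0799 over the 10 of its 14 genes that were counted. It was led by Mirlet7g, Mirlet7i (28544 ± 539 CPM) and Mirlet7d. Reads placed at several let-7 genes are in no count, and Mirlet7e has no row of its own. The let-7 share can therefore be understated.

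Among the miR-99 and miR-100 genes, Mir99a (ENSMUSG00000065530.1) was the highest. It had 287308 counts (64370 CPM) in pup 1 and 213232 counts (61723 CPM) in pup 2, a mean of 63047 ± 1872 CPM. It ranked 3rd of all miRNA genes in each pup, below Mir203 (95385 ± 1150 CPM), a miRNA gene of squamous epithelium, and above Mirlet7g (42007 ± 2018 CPM), and both gaps were larger than either SD.

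Mir99b (ENSMUSG00000065396.1) had 37199 counts (8334 CPM) in pup 1 and 28328 counts (8200 CPM) in pup 2, a mean of 8267 ± 95.01 CPM and rank 22 in each pup. Its spread in CPM, 1.15% of the mean, was the smallest of the 6 members on this scale, though not with the TMM scaling used below. The nearest genes in level were Mirlet7d above it (9937 ± 102 CPM) and Mir411 below it (7979 ± 399 CPM), and the gap to Mir411 was within the SD of Mir411.

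Mir100 (ENSMUSG00000093011.1) had 19560 counts (4382 CPM) in pup 1 and 14573 counts (4218 CPM) in pup 2, a mean of 4300 ± 116 CPM. It stood between Mir652 (4458 ± 107 CPM) and Mir379 (4247 ± 199 CPM), and its order with both of these genes differed between the pups.

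The miR-125 genes were each lower than any of these 3. Mir125a (ENSMUSG00000065479.1) had 9998 counts (2240 CPM) in pup 1 and 9170 counts (2654 CPM) in pup 2, a mean of 2447 ± 293 CPM. Its level could not be separated from those of Mir181c (2474 ± 47.7 CPM) and Mirlet7f-2 (2434 ± 47.4 CPM), since both gaps were below its SD.

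Mir125b-2 (ENSMUSG00000065472.1) had 2606 counts (584 CPM) in pup 1 and 2101 counts (608 CPM) in pup 2, a mean of 596 ± 17.2 CPM. Mir125b-1 (ENSMUSG00000093354.1) had 1203 counts (270 CPM) in pup 1 and 1101 counts (319 CPM) in pup 2, a mean of 294 ± 34.8 CPM. These values are counts of reads placed at 1 gene, and the sharing of miR-125b-5p described below limits them. The nearest genes in level, Mir181a-1 (600 ± 78.4 CPM) and Mir467e (588 ± 34.8 CPM) for Mir125b-2, and Mir186 (303 ± 8.58 CPM) and Mir152 (278 ± 42.2 CPM) for Mir125b-1, differed from them by less than the SD of one of the pair.

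The order Mir99a, Mir99b, Mir100, Mir125a, Mir125b-2, Mir125b-1 was the same in each pup. Mir99a exceeded Mir99b 7.62-fold (log2 ratio 2.93 ± 0.026, SD over the pups), Mir99b exceeded Mir100 1.92-fold (0.94 ± 0.022) and Mir100 exceeded Mir125a 1.76-fold (0.82 ± 0.21). Mir125a exceeded Mir125b-2 4.09-fold (2.03 ± 0.13), and Mir125b-2 exceeded Mir125b-1 2.03-fold (1.02 ± 0.13). Reads of miR-125b-5p placed at both of its genes enter neither of these 2 ratios. Each of the 5 gaps was larger than its SD. The smallest p that an exact permutation of 2 libraries allows is 0.5, so no p is given. The ratios compare reads, and how efficiently each miRNA was captured in the library was not measured.

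**Figure D1:**
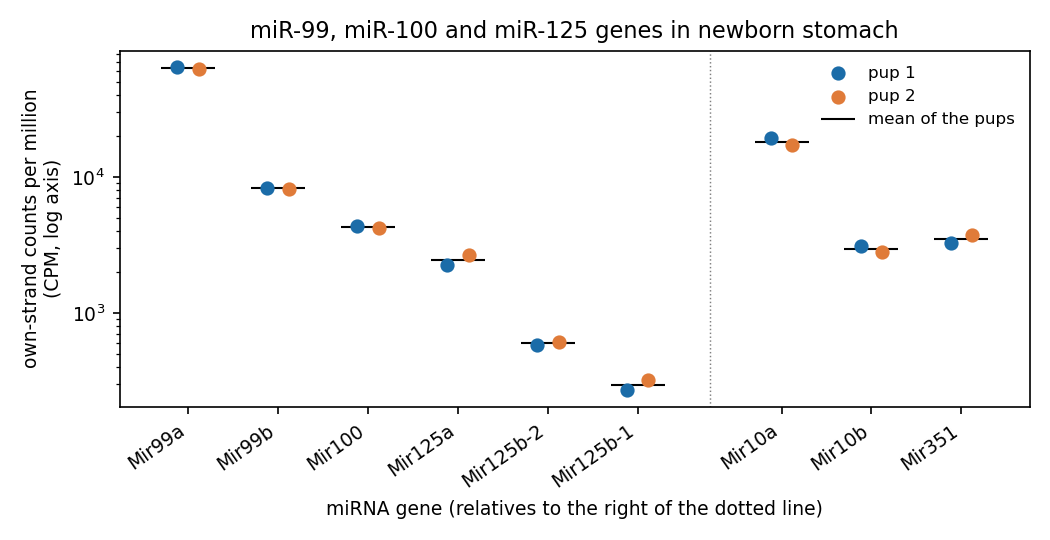
Own-strand CPM (log axis) of the 6 members, ordered by mean level, and, right of the dotted line, of the related genes Mir10a, Mir10b and Mir351. Points are the 2 pups, drawn side by side, and black lines their mean. Mir99a lies at 64370 and 61723 CPM, and the members run down to Mir125b-1 at 270 and 319 CPM.

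Summed by seed, the 3 genes of the miR-99 and miR-100 seed held 7.71% of the counts in pup 1 and 7.41% in pup 2. The 3 miR-125 genes held 0.309% in pup 1 and 0.358% in pup 2. The miR-99/100 genes thus exceeded the miR-125 genes 24.9-fold in pup 1 and 20.7-fold in pup 2 (log2 ratio 4.51 ± 0.19), a ratio that counts no read of miR-125b-5p placed at both of its genes. Within the miR-99/100 seed, Mir99a made up 83.4% ± 0.179, Mir99b 10.9% ± 0.176 and Mir100 5.69% ± 0.0033.

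The seed of miR-99 and miR-100 stood in 3 of 1738 mature sequences in the RefSeq table, all of them members. The miR-125 seed stood in 6 entries from 6 genes, 3 of which are no members. Of these, Mir351, a miRNA gene on the X chromosome (53053255 to 53053353, minus strand), was the 1 with counts.
miR-351-5p: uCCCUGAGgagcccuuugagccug
Beyond its first 8 bases this product departs from miR-125b-5p. Mir351 had 14512 counts (3251 CPM) in pup 1 and 12879 counts (3728 CPM) in pup 2, and it exceeded Mir125a 1.43-fold (log2 ratio 0.51 ± 0.034). It made up 51.1% ± 0.170 of the counts of miR-125 seed genes, beside 35.8% ± 0.715 for Mir125a. These shares count no read of miR-125b-5p placed at both of its genes. Both can therefore be overstated, and they do not give the make-up of the miR-125 seed in the tissue. Mir6367 and Mir6394, the other carriers of this seed, had 0 counts in both libraries.

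**Figure D2:**
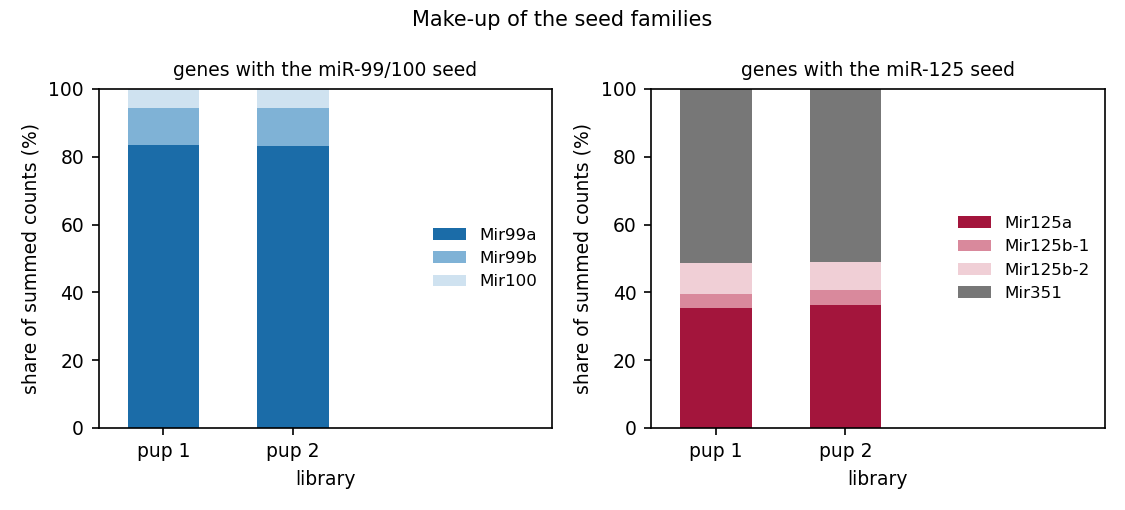
Share of the summed counts (%) that each gene held among the genes with the miR-99/100 seed (left) and with the miR-125 seed (right), for each pup. Mir99a makes up 83.5% of the first group in pup 1 and 83.3% in pup 2, and Mir351 makes up 51.2% and 51.0% of the second. The second group counts no read of miR-125b-5p placed at both of its genes.

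The miR-10 genes, which lie within Hox clusters, belong to the same wider family as miR-99 and miR-100 but carry a different seed.
miR-10a-5p: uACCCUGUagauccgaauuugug
This product and miR-99a-5p share at most 10 bases in a row. Mir10a stood at 19159 CPM in pup 1 and 17068 CPM in pup 2, and Mir10b at 3128 and 2785 CPM. Mir99a exceeded Mir10a 3.49-fold (log2 ratio 1.80 ± 0.075).

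The 6 genes lie in 3 clusters on the plus strands of chromosomes 16, 9 and 17 (GRCm38, GENCODE M21). On chromosome 16, Mir99a (77598936 to 77599000) and Mir125b-2 (77646273 to 77646343) lie 47.3 kb apart in introns of the long noncoding host RNA Mir99ahg, with Mirlet7c-1 between them. On chromosome 9, Mir100 (41531425 to 41531504) and Mir125b-1 (41581926 to 41582002) lie 50.5 kb apart in introns of the noncoding RNA 3110039I08Rik, with Mirlet7a-2 between them, and Mir125b-1 also overlaps an exon of the short transcript Gm28119. On chromosome 17, Mir99b (17830188 to 17830257) and Mir125a (17830812 to 17830879) start only 624 bases apart within Spaca6, a gene for a sperm membrane protein, Mir99b in an intron and Mir125a overlapping an exon.

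In each cluster the miR-99 or miR-100 gene had more counts than the miR-125 gene, by factors that differed widely. On chromosomes 16 and 9 the count of the Mir125b gene holds no read of miR-125b-5p placed at both of its genes. Those factors can therefore be overstated, and the spread of factors is not a measured difference between clusters. On chromosome 16, Mir99a exceeded Mir125b-2 110-fold in pup 1 and 101-fold in pup 2 (log2 ratio 6.72 ± 0.084). On chromosome 9, Mir100 exceeded Mir125b-1 16.3-fold in pup 1 and 13.2-fold in pup 2 (3.87 ± 0.21). On chromosome 17, where the counts of both genes come from products of their own, Mir99b exceeded Mir125a 3.72-fold in pup 1 and 3.09-fold in pup 2 (1.76 ± 0.19). The ratio was higher in pup 1 for all 3 clusters.

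The let-7 genes of the first 2 clusters had few counts. Mirlet7c-1 had 455 counts (102 CPM) in pup 1 and 547 counts (158 CPM) in pup 2, and Mirlet7a-2 had 353 counts (79.1 CPM) in pup 1 and 361 counts (104 CPM) in pup 2. Mir99a exceeded Mirlet7c-1 by a log2 ratio of 8.95 ± 0.49 and Mir100 exceeded Mirlet7a-2 by 5.56 ± 0.32. Each of these let-7 genes has a stretch of 23 nt in common with another hairpin, Mirlet7c-1 with Mirlet7c-2 and Mirlet7a-2 with Mirlet7a-1. Reads of such a stretch can be absent from the counts of both genes, so both ratios to the let-7 genes can be overstated.

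Mirlet7e, the let-7 gene of the chromosome 17 cluster (17830352 to 17830444), was seen through another row. The gene Gm25927 is annotated on the minus strand at 17830343 to 17830459 and encloses it. Gm25927 had 0 own-strand counts in both libraries, while reads opposite to it, on the strand of Mirlet7e, numbered 11777 in pup 1 and 10969 in pup 2. The hairpin of Mirlet7e, with its products in capitals, is shown as the annotated miRNA under these reads.
Mirlet7e: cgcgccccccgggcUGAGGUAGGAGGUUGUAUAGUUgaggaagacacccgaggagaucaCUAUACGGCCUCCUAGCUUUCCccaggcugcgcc
On the scale of the own-strand totals these reads stood at 2639 CPM in pup 1 and 3175 CPM in pup 2. Mir99b exceeded them 2.86-fold (log2 ratio 1.51 ± 0.21), and they exceeded Mir125a 1.19-fold (0.25 ± 0.016). Read this way, the levels in the chromosome 17 cluster spanned 3.39-fold, from Mir99b down to Mir125a. None of the 6 members had any read on the opposite strand, with 0 counts in each library.

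**Figure D3:**
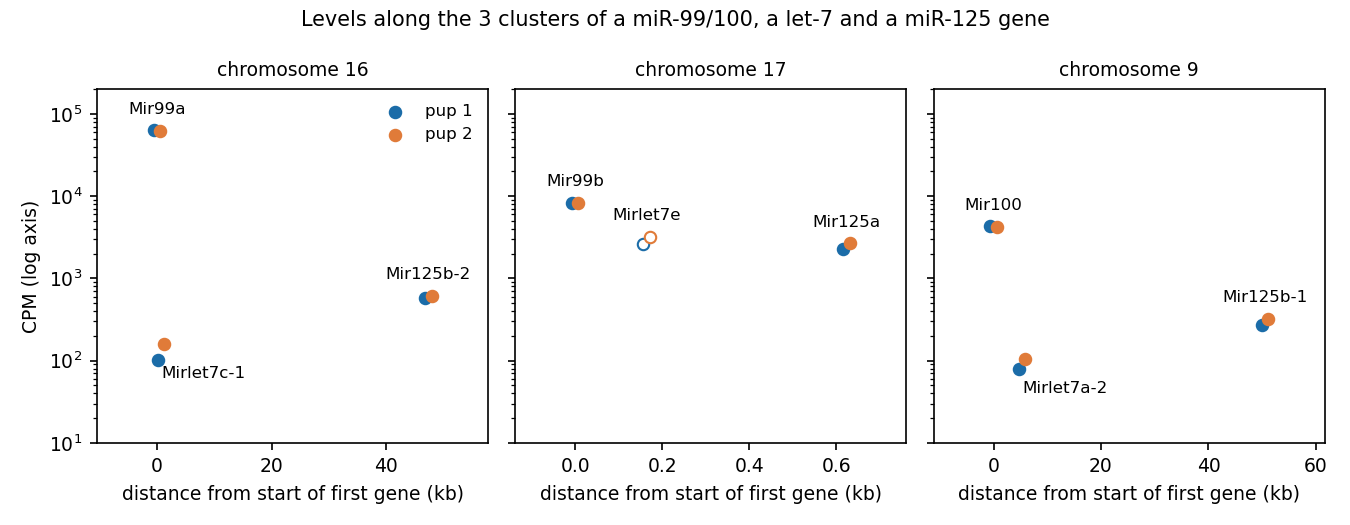
Level (CPM, log axis) of each gene against the distance of its start from the start of the first gene of its cluster (kb, a scale of its own in each panel). Points are the 2 pups, drawn slightly apart, and open circles for Mirlet7e are reads opposite to Gm25927, in CPM of the own-strand total. The miR-99 or miR-100 gene is the highest point of each panel.

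The low counts of Mir125b-1 and Mir125b-2 have to be read beside what they share. Their hairpins have a stretch of 24 nt in common, which holds the whole of miR-125b-5p and 2 bases before it. A 22-nt read of this product therefore matches both places equally well. The stretch ends with the last base of miR-125b-5p, so a read that runs on past it could be placed at 1 gene. No such stretch of at least 20 nt was found between any of the other 4 members and another annotated hairpin. For Mir99a and Mir100 the longest stretch, 16 nt, was the one they share with each other, for Mir99b it was 11 nt and for Mir125a 14 nt. The 5p products of Mir99a and Mir100 differ by 1 base, and the mismatch setting is not stated. Whether reads of either gene were counted at the other was not measured. The reads that mapped to several places, 1873722 in pup 1 and 1425289 in pup 2, were not broken down by their source, and the part of miR-125b-5p in them was not measured. The summed level of miR-125b in this tissue can therefore not be given.

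Mature sequences from RefSeq could be matched to 916 genes of the table and to 282 of the 305 detected ones, and the other 23 detected genes are left out here. Of the 916, 87 genes have a mature product that is listed under several genes, and 829 have products listed under 1 gene. Of the first, 40 were detected, with a median of 41.1 CPM. Of the second, 242 were detected, with a median of 184 CPM. The split rests on the products that RefSeq lists. For Mirlet7a-2 it lists the 3p product alone, so this gene counts among the 829 despite the 23 nt it shares with Mirlet7a-1. Other genes can be misplaced in the same way. By mean level Mir125b-2 ranked 6th and Mir125b-1 11th among the 87, a list led by Mirlet7f-2 at 2434 CPM. Both genes also lay above 184 CPM, the median of the 242, as did the other 4 members.

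**Figure D4:**
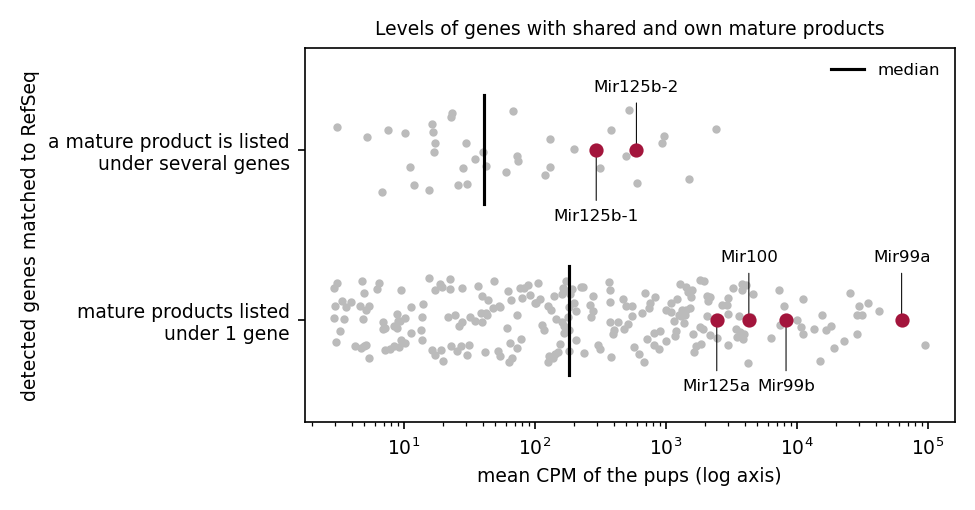
Mean CPM of the 282 detected genes matched to RefSeq mature sequences (log axis), split by whether RefSeq lists a mature product under several genes (upper row) or each product under 1 gene (lower row), with random vertical spread. Black bars are the medians, at 41.1 and 184 CPM, and red points are the 6 members.

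Between the pups, no member differed by 1.5-fold or more. A gene was called at a ratio of at least 1.5 and an adjusted p under 0.05 (two-sided exact binomial test on the counts, scaled by TMM, with Benjamini-Hochberg adjustment over 305 detected genes). By this rule 0 of 6 members were called, beside 9 of 305 genes (2.95%), of which 2 were higher in pup 1 (0.656% of 305) and 7 in pup 2 (2.3%). Of the 10 let-7 genes 0 were called. By adjusted p alone, 5 of 6 members differed, beside 159 of 305 genes (52.1%). The test covers counting error only. It compares these 2 libraries, not conditions. In edgeR's exact test with a common dispersion, 1 of 305 genes was called (0.328%), no member among them, beside 16 genes at an unadjusted p under 0.05. The dispersion was estimated from the same 2 libraries, so this count says nothing about whether the members differ between pups.

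With TMM scaling the miR-99 and miR-100 genes were slightly higher in pup 1. The log2 ratio of pup 1 over pup 2 was 0.16 for Mir99a (95% interval 0.16 to 0.17), 0.13 for Mir99b (0.10 to 0.15) and 0.16 for Mir100 (0.13 to 0.19). Mir125a was lower in pup 1, at -0.14 (-0.18 to -0.10; adjusted p = 5.1e-11, exact binomial test), as was Mir125b-1, at -0.14 (-0.26 to -0.019; adjusted p = 0.042, exact binomial test). Mir125b-2 did not pass, at 0.044 (-0.039 to 0.13; adjusted p = 0.43, exact binomial test), and its sign turned to -0.059 when totals alone set the scale. The median of the members' absolute log2 ratios was 0.140, beside 0.172 over all detected genes. These groups differ in level, with medians of 3374 CPM and 166 CPM, and counting error is larger at low counts. The 2 medians of ratios therefore do not show that the members were steadier. Scaling by totals alone moved the median log2 ratio of all detected genes to -0.13, against -0.024 with TMM. It brought Mir99a to 0.061, Mir100 to 0.055 and Mir99b to 0.023, where Mir99b no longer passed (adjusted p = 0.077, exact binomial test), and Mir125a and Mir125b-1 to -0.24 each.

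Markers of other cell types also differed between the pups, by summed CPM of each list, with totals alone as the scale. Genes of 1 list could differ in direction. The smooth muscle genes (2 of 2 detected) stood at 256110 CPM in pup 1 and 239013 CPM in pup 2, and the endothelial gene Mir126a at 35623 and 34429 CPM. Mir145a of the smooth muscle list went the other way by CPM, at 5547 and 5860, though not with TMM (log2 ratio 0.024). The glandular epithelial genes (4 of 4 detected) stood at 8155 CPM in pup 1 and 7689 CPM in pup 2. With TMM the log2 ratio was 0.20 for Mir192 and 0.37 for Mir215, but -0.21 for Mir194-1 and -0.37 for Mir194-2. The endocrine gene Mir375 stood at 7681 and 7154 CPM. The squamous genes (3 of 3 detected) stood at 111582 CPM in pup 1 and 116512 CPM in pup 2, and the miR-200 genes of epithelium (5 of 5) at 61131 and 66022 CPM. With TMM, the scale of the members' ratios, the log2 ratio was 0.078 for Mir203, -0.16 for Mir205 and -0.099 for Mir31. Mir203, the highest squamous gene, was thus higher in pup 1 on that scale. For Mir200a, Mir200b, Mir200c, Mir141 and Mir429 the log2 ratio was -0.11, -0.041, -0.19, -0.15 and 0.12. The striated muscle list (1 of 4 detected, Mir206) stood at 97.7 CPM in pup 1 and 265 CPM in pup 2. Their part in the differences of the members was not tested.

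**Figure D5:**
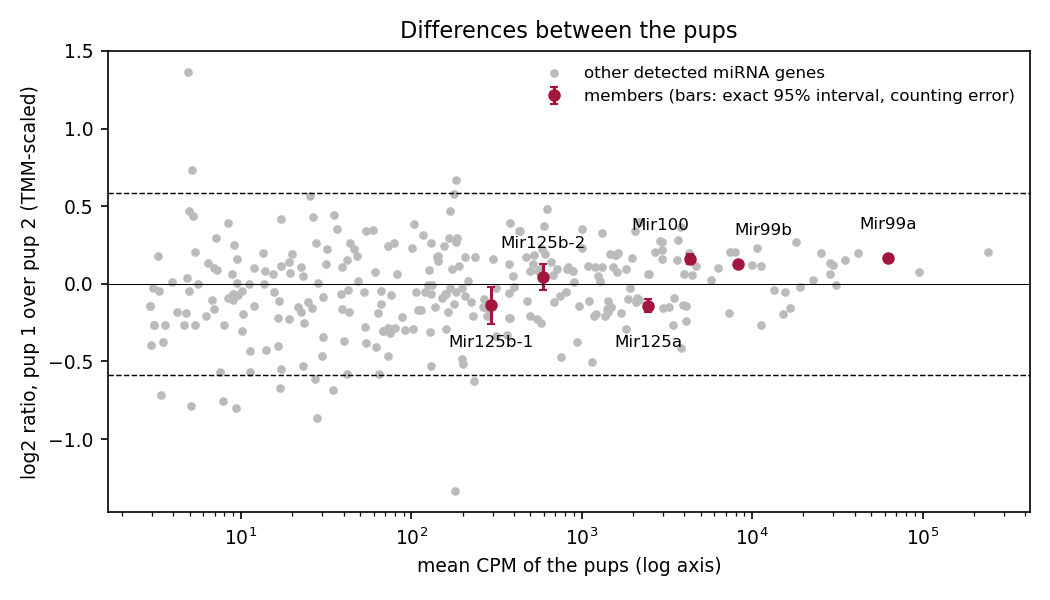
Log2 ratio of pup 1 over pup 2 (TMM-scaled) against mean CPM (log axis) for 305 detected miRNA genes. Red points are the 6 members with exact 95% intervals for counting error, and dashed lines mark a ratio of 1.5 in each direction. The members lie between -0.14 and 0.16.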

How the data were processed

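Each library came with 1 deposited table of unnormalized read counts, which the authors give per gene for both strands together and for each strand. The description files name assembly mm10 and annotation M4. The sources used here do not state the aligner, its mismatch setting or the counting tool. The strand column with the larger total gave the own-strand counts, and rows that name no gene (unmapped, several places, no feature) stayed out of totals. Unmapped reads were 8.70% and 8.94%, and reads outside features 1.78% and 1.70%. Of 1973 identifiers, 1894 matched GENCODE M21. Stretches common to hairpins were searched in M21 transcripts, in the same orientation. Pups were compared by exact binomial tests with TMM from edgeR 4.0.16 (R 4.3.3). The test was checked on simulated counts with known totals and counting error only. That check covers neither TMM nor the spread of these libraries beyond counting error. Size factors from DESeq2 1.42.0 were an alternative. Python 3.11.15 with scipy 1.17.1, numpy 2.4.6 and pandas 2.3.3 did the rest, and matplotlib 3.10.9 the plots.

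The genes named are the members, their cluster and seed relatives, the miR-10 genes and the highest let-7 genes. Also named are the detected gene next above and below each member in mean CPM, and genes that share a stretch with a member. Cell type markers are named from lists of their own. Members and lists were chosen with earlier results of these data known. The labels call the libraries biological replicates from 2 pups, and name no batch that differs between them. Since reads carry no molecular identifiers, PCR copies are not independent, and intervals cover counting error only.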

Additional observations from a re-analysis of the deposited data

Results flagged for a closer look

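Reads opposite to Gm25927, outside the own-strand counts on which the levels rest, numbered 11777 in pup 1 and 10969 in pup 2. They stand above the 3 counts that a count of 0 allows, and lie on the strand of Mirlet7e, which Gm25927 encloses.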

How the results depend on the processing

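The order of the members and the ratios within clusters kept their direction in each pup alone. Counts of both strands could not change the ratios among members and own-strand let-7 genes, which have 0 opposite-strand reads. With counts and totals of both strands, the members' share was 7.72%, without the most abundant gene in the total 10.4%, and with all reads of the table in the total 4.91%. Without Mir125b-1 and Mir125b-2, an alternative chosen after seeing the data, it was 7.81%. The genes called between the pups numbered 9, of which 2 were higher in pup 1 and 7 in pup 2. Totals alone gave 16, 1 and 15, and edgeR's common dispersion, itself estimated from the 2 pups, gave 1, 0 and 1. Adjusted p alone gave 159, 85 and 74, and then called Mir99a (log2 ratio 0.16), Mir99b (0.13), Mir100 (0.16), Mir125a (-0.14) and Mir125b-1 (-0.14). The number higher in pup 1 was 4 with DESeq2 size factors, 4 with a minimum of 1 count and 1 with a minimum of 100 counts. Mir125b-2 reversed to -0.059 with totals alone (adjusted p = 0.27, exact binomial test), and its adjusted p ran from 0.18 to 1.00 over 7 settings. That of Mir125b-1 ran from 0.00021 to 1.00, passing 0.05 with TMM at minimums of 10 and 100 counts, with totals alone and with both strands. Stretches of at least 18 nt or 22 nt marked Mir125b-1 and Mir125b-2 as well. No paired analysis was possible because the series has 1 group. Leaving out a pup leaves no difference between pups to test.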

Other observations

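Between the pups, the ratio of Mir99a to Mir100, paralogs on chromosomes 16 and 9, was 14.7 in pup 1 and 14.6 in pup 2, and that of Mir125a to Mir125b-1, on chromosomes 17 and 9, was 8.31 in pup 1 and 8.33 in pup 2. The ratio of Mir10a to Mir10b was 6.13 in each pup. Other pairs on different chromosomes differed more, by -0.11 on the log2 scale (pup 1 minus pup 2) for Mir99a over Mir10a, by -0.19 for Mir125a over Mir125b-2, by 0.18 for Mir125b-2 over Mir125b-1 and by 0.037 for Mir99a over Mir99b. Within clusters, the miR-99 or miR-100 gene over the miR-125 gene differed by 0.12, 0.30 and 0.27 on chromosomes 16, 9 and 17. The reads opposite to Gm25927 over Mir125a differed by -0.022, Mir125b-1 over Mirlet7a-2 by 0.16 and Mir125b-2 over Mirlet7c-1 by 0.58. Mir99a over Mirlet7c-1 differed by 0.70, Mir100 over Mirlet7a-2 by 0.46 and Mir99b over the reads opposite to Gm25927 by 0.29. These pairs were picked after their values were seen, and with 1 library per pup the differences have no replicate check.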
